A study of Mus musculus with 18 samples.

Results

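Small nucleolar RNA (snoRNA) genes were examined in the RNP and polysome RNA of male germ cells. Members were chosen by the deposited FPKM values: a gene of the type snoRNA in the mm9 annotation (GENCODE vM1) was a member if its FPKM, the fragments mapped to it scaled by transcript length and library size, was at least 1 in 3 or more of the 18 libraries. This gave 47 of 1552 annotated snoRNA genes, or 3.03%. By symbol, 7 of the 47 were box C/D genes (Snord or SNORD), 23 were box H/ACA genes (Snora or SNORA), 11 were small Cajal body RNA genes (Scarna or SCARNA) and 6 had other symbols. Since the values chose the members, their levels are given below as a description, with no test.

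All 18 libraries came from wild-type adult mice, C57BL/6 in the labels and C57BL/6J in the study's methods. Pachytene spermatocytes, round spermatids and elongating spermatids were purified by STA-PUT sedimentation of cells pooled from several testes, in the presence of cycloheximide, and the post-nuclear lysate of each was run on a sucrose gradient, from which the light RNP fractions and the heavy polysome fractions were taken. For every cell type and fraction there are 3 libraries of large RNA, in 6 groups, made with a stranded total RNA kit. The labels do not say whether the 3 libraries of a group are separate purifications, so the spread between them may be partly technical. From cell morphology, the study put the purity of its elongating spermatids well below that of its pachytene spermatocytes and round spermatids. In bulk RNA of this kind, fewer cells of a type and less RNA per cell cannot be told apart.

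A snoRNA is a short stable RNA that works in a ribonucleoprotein particle. Box C/D RNAs carry a C box near the 5′ end and a D box near the 3′ end and guide 2′-O-methylation by fibrillarin, while box H/ACA RNAs carry an ACA near the 3′ end and guide pseudouridylation by dyskerin. Most of their targets are in ribosomal RNA, small Cajal body RNAs (scaRNAs) guide the same changes in spliceosomal RNAs, and a few, such as U3 and U17, are needed for cleavage of the pre-ribosomal RNA instead. Most mammalian snoRNAs are cut out of the introns of host genes, and the mature particles act in the nucleolus or Cajal bodies, whereas these libraries hold post-nuclear RNA.

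Terminal stretches of 30 bases are shown for the members on which the results below turn, read 5′ to 3′ from the mm9 genome (NCBIM37), because the boxes that define the classes lie there. Capitals mark the box searched for: ACA at the 3′ end of H/ACA and Cajal body RNAs, and TGATGA (the C box) at the 5′ end or CTGA (the D box) at the 3′ end of C/D RNAs. The 3′ ends of SNORA73 (chr9:120038642-120038671, plus strand), its relatives Snora73a (chr4:131908690-131908719, minus strand) and Snora73b (chr4:131908237-131908266, minus strand), SNORA71 (chr2:158185534-158185563, minus strand), SNORA63 (chr16:23111473-23111502, plus strand), SNORA53 (chr10:90581036-90581065, minus strand) and SCARNA16 (chr11:116938720-116938749, plus strand) read as follows.
SNORA73: ctgaggaggcaaaccatgcaggaaACAgtg
Snora73a: ctgaggagacaaaccatgcaggaaACAgtt
Snora73b: ctgaggagacaaaccatgcaggaaACAaaa
SNORA71: gtccttgccaaaccctggtgctttcccACA
SNORA63: tagcagccagggacgcttggtctcaaACAt
SNORA53: ctgtcaggactcgactggtgtgcggACAcg
SCARNA16: tggtggtcatgtatgatactgcaaACAgga

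Of the C/D type, Snord66 (chr16:20684312-20684341 and chr16:20684357-20684386, plus strand) and snoU6-77 (chr11:69482468-69482497 and chr11:69482354-69482383, minus strand) held both boxes. SnoU97 (chr7:118219574-118219603, minus strand), the member with the highest mean level, held neither ACA nor CTGA at its 3′ end and is shown with no capitals.
Snord66, first bases: ttccgcTGATGActtctgtcagtgccacgt
Snord66, last bases: accacatgatgggattgaggacCTGAggaa
snoU6-77, first bases: gctctgTGATGAaccccatgcgtgtcatct
snoU6-77, last bases: gcaaaggatcagtccttgtattCTGAgagc
snoU97, last bases: atgagcgaagattatgagatatgagggcaa

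The letters were searched on the gene's strand only. An ACA that ended exactly 3 bases before the annotated end was present in 16 of the 23 H/ACA members (69.6%), in 24.0% of the 1031 annotated H/ACA genes and in 18.2% of all annotated snoRNA genes. CTGA within the last 15 bases was present in 7 of 7 C/D members, in 90.5% of the 346 annotated C/D genes and in 28.9% of all, and TGATGA within the first 25 bases in 5 of 7, 75.4% and 19.2%. Several members were close copies of each other: Snora73a and Snora73b were 96.6% identical over an alignment of 205 columns, the SNORA84 pair on chromosomes 13 and 16 was 91.0% identical, and the SNORA79 pair on chromosomes 12 and 16 was 89.6% identical. Reads of such copies could have been placed on either, and SNORA73, SNORA63, SNORA71, SNORA48 and U3 each name 13, 7, 15, 30 and 47 annotated genes, so the values of a copy are less certain than those of a gene with 1 copy.

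The members were long for snoRNAs. Their median annotated length was 144 bases, against 127 bases for all annotated snoRNA genes. Of the 456 annotated snoRNA genes under 100 bases, 1 was a member (0.219%), and the share was 1.13% from 100 to under 130 bases, 3.67% from there to under 160, 31.6% from there to under 200 and 38.2% above. By class, 25.6% of the 43 scaRNA genes were members (median annotated length 137 bases), 2.23% of the H/ACA genes (130 bases) and 2.02% of the C/D genes (79 bases). Among the members themselves the median was 193 bases for scaRNA, 144 for H/ACA and 137 for C/D genes. The classes were not compared within a range of length. None of the 168 annotated snoRNA genes of the imprinted clusters (Snord115, Snord116 and relatives) was assembled in any library.

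A value above 0 means that Cufflinks assembled a transcript piece over the gene in that library, and the lowest such value of a member was 3.77 FPKM (Snora23, round polysome library 3), so the threshold in effect asked for a piece in 3 libraries. A gene with no piece is listed at 0, which does not show that its RNA was absent. Just inside the threshold were U3 on chromosome 11, SNORA84 on chromosome 16 and Scarna3b, with third-highest values of 12.6, 16.7 and 27.8 FPKM. Just outside were a second SNORA55 copy on chromosome 4, Scarna17 and SCARNA15, which were assembled in 2 libraries each, with highest values of 5670, 5035 and 586 FPKM. The 47 members were assembled in 474 of 846 gene and library pairs (56.0%), 8 of them in all 18 libraries and 65 annotated snoRNA genes in at least 1.

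The FPKM of these pieces rested more on their length than on the number of fragments. A piece of at most 60 nt was given a median of 1930 FPKM per estimated fragment (45 pieces), one of 61 to 80 nt 106 FPKM (66 pieces), one of 101 to 150 nt 8.83 FPKM (103 pieces) and one of over 200 nt 0.471 FPKM (150 pieces). Fragments were therefore also estimated for each piece, from its FPKM, its length and the length dependence of all single-exon transcripts, and set to the mean depth of the libraries. By the counts implied by the bounds of their FPKM, not set to mean depth, the pieces held between 9.59 and 3927 fragments with a median of 60.1, so that most values rest on few reads. The FPKM per fragment above used the same counts. The fraction comparisons of members below are given mainly on both scales, other values on FPKM unless fragments are named, and the fragment scale was added after the FPKM values had been seen.

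**Figure D1:**
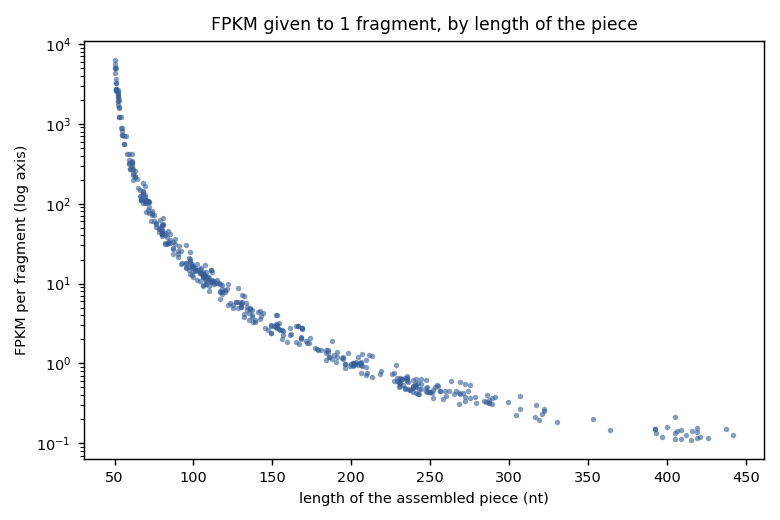
FPKM given to 1 fragment (vertical axis, log scale) against the length of the assembled piece in nt (horizontal axis), with 1 point for each of the 474 pieces of the 47 members. The value falls from a median of 1930 FPKM for pieces of up to 60 nt to 0.471 FPKM for pieces of over 200 nt.

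The pieces were gathered at the 3′ end of the genes. Of the 474 pieces, 326 (68.8%) ended within 15 bases of the annotated 3′ end, and 51 (10.8%) started within 15 bases of the annotated 5′ end. In 42 of 47 members the median end lay nearer to the annotated end than the median start lay to the annotated start. The share of ends was 68.7% in the RNP and 68.9% in the polysome libraries, and that of starts 13.4% and 7.55%. For the 15 spliceosomal RNA genes that met the same rule, 56.0% of 182 pieces ended and 45.6% started within 15 bases of the annotated ends.

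SnoU97 ended 4 or 5 bases before its annotated end in all 18 libraries, while its starts lay between 45 and 98 bases into the gene. The ends of snoU89 lay between 1 base before and 7 bases beyond the annotated end, and those of snoU90 between 13 and 2 bases before it. SCARNA21 was different from these, since its pieces ran 59 to 109 bases beyond the annotated end in all 18 libraries. The same was seen for SNORA12 (70 to 100 bases beyond, 11 libraries) and U3 on chromosome 11 (68 to 96 bases beyond, 4 libraries). Of all 474 pieces, 160 reached beyond the gene and 290 had no stated strand, so that part of their reads may belong to the surrounding intron or to the other strand, where Gm17300 lies opposite Snora73a and Snora73b.

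**Figure D2:**
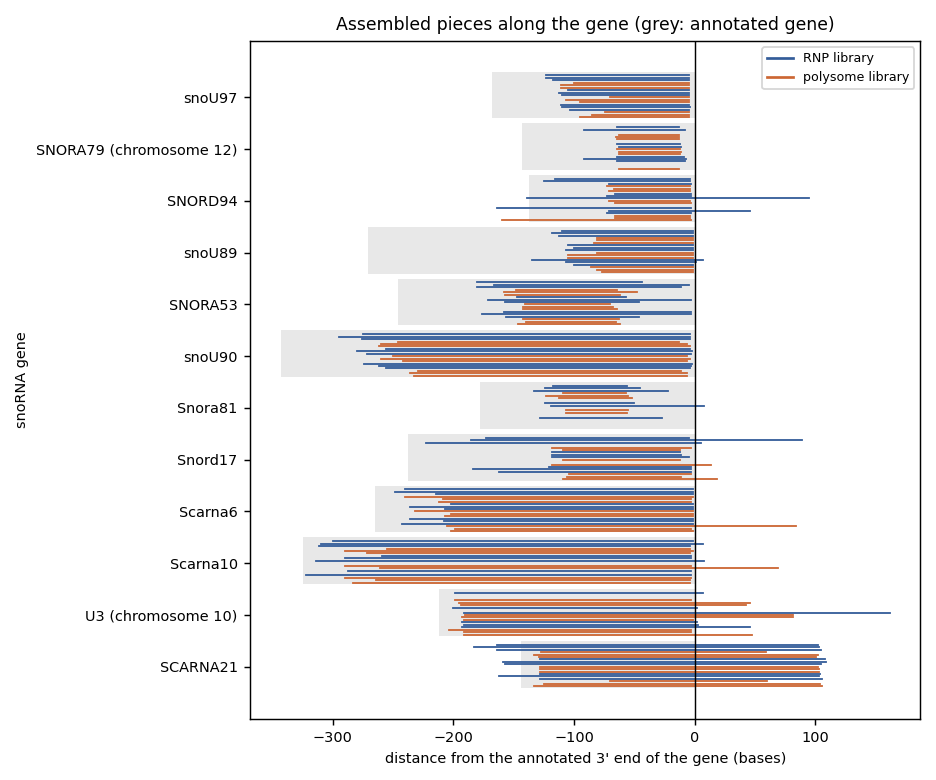
Position of each assembled piece (lines; blue RNP, orange polysome) relative to the annotated 3′ end of the gene, in bases, for the 12 members with the highest mean level, with the annotated gene in grey. The pieces of snoU97 stop 4 or 5 bases before the 3′ end in every library, whereas those of SCARNA21 run 59 to 109 bases beyond it.

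The highest mean levels were those of snoU97, SNORA79 on chromosome 12, SNORD94, snoU89, SNORA53 and snoU90. SnoU97 lies in an intron of Eif4g2 (chromosome 7, 118219574 to 118219741) and corresponds to human SNORD97, a C/D RNA. Its FPKM was 5970, 8556 and 5566 in pachytene RNP, 15270, 16520 and 16930 in pachytene polysome, 3357, 5510 and 2915 in round RNP, 78040, 12820 and 14160 in round polysome, 5038, 3607 and 5219 in elongating RNP and 38840, 20560 and 8927 in elongating polysome libraries. The polysome values lay above the RNP values in each cell type, with no overlap. On the fragment scale the groups overlapped: 794, 1138 and 594 fragments against 786, 1392 and 1426 in pachytene, 219, 484 and 236 against 462, 912 and 564 in round, and 424, 304 and 310 against 351, 450 and 356 in elongating cells. The RNP pieces were 98 to 118 nt long and the polysome pieces 65 to 106 nt. Averaged over the cell types, snoU97 was 2.02 higher in polysomes on the log2(FPKM + 1) scale (SE 0.93, adjusted p = 0.107) and 0.59 higher on the log2(fragments + 1) scale (SE 0.27, adjusted p = 0.079), neither past the test. With median-ratio scaling of the fragments, described below, the difference turned to −0.73 (adjusted p = 0.113).

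SNORA79 on chromosome 12 (92811870 to 92812012, in Gtf2a1) had the highest single value, 188900 FPKM in pachytene polysome library 3. This value came from a piece of 51 nt with 58.7 fragments at mean depth, and over the 14 libraries with a piece the fragments lay between 10.8 and 81.5. SnoU90, by contrast, had 93.3 to 1010 FPKM in its 18 libraries but 126 to 2913 fragments, on pieces of 218 to 291 nt. Levels on the FPKM scale therefore do not rank these genes by their number of fragments. The highest fragment values in a library were 4430 for U3 on chromosome 10, 3460 for Scarna10 and 2913 for snoU90.

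SNORD94, a C/D RNA that guides methylation of U6 spliceosomal RNA, was assembled in 17 of 18 libraries. Its fragments at mean depth were 86.4, 200 and 110 in pachytene RNP, 40.5, 65.4 and 81.1 in pachytene polysome, 52.6, 88.0 and 73.9 in round RNP, 39.0, 83.2 and 0 in round polysome, 91.5, 54.5 and 118 in elongating RNP and 25.4, 48.7 and 34.9 in elongating polysome libraries. The polysome values lay below the RNP values in pachytene and elongating cells and overlapped with them in round spermatids. SnoU89, in an intron of Phb2, and snoU90, in an intron of Kpna4, correspond to human small Cajal body RNAs. SnoU89 ran from 13.8 to 28.5 fragments in the elongating polysome and from 37.9 to 160 in the elongating RNP libraries.

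The other members among the 12 highest were Snora81 (in Eif4a2), Snord17 (in Snx5), Scarna6 (in Atg16l1), Scarna10 (in Ncapd2), U3 on chromosome 10 and SCARNA21 (in Chd3). Scarna10, also called U85, has both C/D and H/ACA boxes. It had 1040, 2124 and 1133 fragments in pachytene RNP, 364, 979 and 1267 in pachytene polysome, 431, 3460 and 843 in round RNP, 0, 2005 and 711 in round polysome, 866, 0 and 460 in elongating RNP and 242, 257 and 388 in elongating polysome libraries. The libraries numbered 2 of round spermatids were the highest of their groups, and the 2 libraries at 0 lay in groups whose other libraries held between 459.8 and 2005 fragments.

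**Figure D3:**
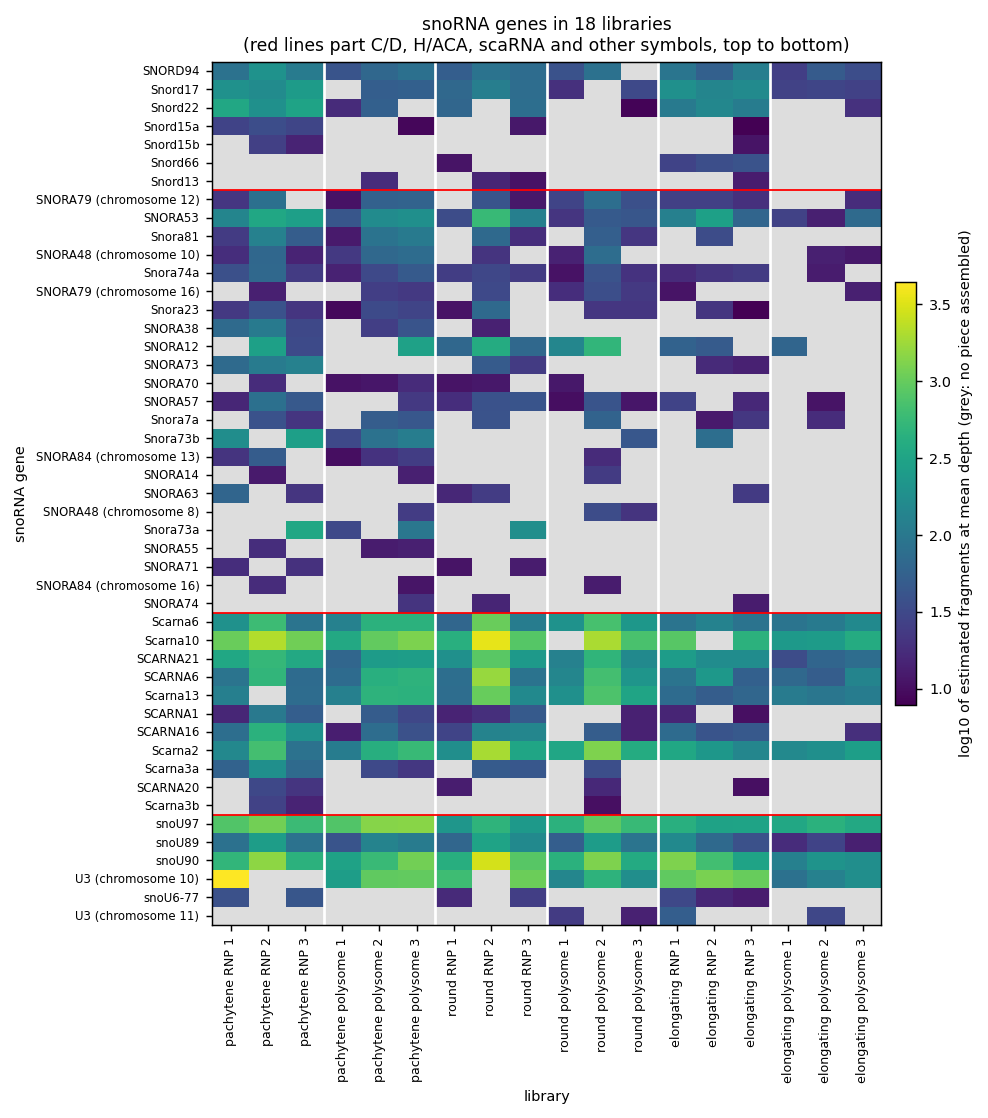
Estimated fragments at mean depth (colour, log10 scale; grey, no piece assembled) of the 47 members (rows, ordered by class) in the 18 libraries (columns). The elongating polysome libraries hold the fewest members, between 14 and 18, and the small Cajal body RNAs are assembled in more libraries than most C/D members.

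The libraries differed in how many members they held. A piece was assembled for 31, 35 and 34 of 47 members in pachytene RNP, 23, 30 and 36 in pachytene polysome, 26, 30 and 28 in round RNP, 20, 29 and 24 in round polysome, 24, 24 and 30 in elongating RNP and 14, 18 and 18 in elongating polysome libraries. Summed over the members, fragments at mean depth were 9300, 10260 and 5375 in pachytene RNP, 2527, 7099 and 8652 in pachytene polysome, 2799, 15530 and 5097 in round RNP, 2438, 10140 and 3547 in round polysome, 5403, 4048 and 3405 in elongating RNP and 1416, 1745 and 2090 in elongating polysome libraries. The elongating polysome libraries held the lowest sums, and in elongating cells the fractions did not overlap. In pachytene and round cells they did.

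The round libraries numbered 2 held the highest sums of their groups and stood apart in cell markers too. The summed FPKM of 14 Sertoli cell markers was 1750 in round RNP library 2, against 70.5 and 138 in the other round RNP libraries, and 3330 in round polysome library 2, against 155 and 316, while the 13 elongating spermatid markers summed to 244 there in RNP, against 5820 and 3430. Their 10 round spermatid markers summed to 83.5 in RNP, against 750 and 543, and to 129 in polysomes, against 1500 and 1150, the lowest sums of all 18 libraries, which goes against their label. The Sertoli sums were 211 to 2380 in the pachytene and 50.3 to 120 in the elongating libraries, with 1850 in pachytene RNP library 2 and 2380 and 2210 in pachytene polysome libraries 2 and 3. The libraries with high Sertoli sums also held many members' fragments, and the elongating RNP libraries, at 50.3 to 55.5, held the lowest Sertoli sums. The part of Sertoli cell RNA in the members' values was not tested. The files give no read totals, but the coverage behind 1 FPKM gave a relative depth that differed by up to 1.88-fold between libraries, and 26773 to 109864 transcripts were assembled per library.

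Whether snoRNAs were held in the RNP or the polysome fraction was compared first over the 3 cell types together, then in each. With all 14665 genes that met the rule in 1 limma fit of log2(FPKM + 1), 7 members passed an adjusted p of 0.05 for the mean of the 3 cell types, of which 6 were lower in polysomes and 1 was higher. In all genes tested, 30.6% passed, 30.1% higher and 0.491% lower. The 6 lower members were SNORA73, snoU6-77, SNORA63, Snord66, SCARNA16 and SNORA71, and the higher was SNORA53, which was lower on the fragment scale. SNORA73, snoU6-77, SNORA63, Snord66 and SNORA71 had pieces in RNP libraries and in 0 polysome libraries, so they became members through the RNP fraction alone and could only be lower in polysomes. Their direction and p-values are a description of that selection and not evidence for it, and a 0 does not show that the RNA was absent. SCARNA16 and SNORA53 had pieces in both fractions. All 6 were also lower on the fragment scale, where 12 members passed, 12 lower and 0 higher, against 54.1% of all genes (0.586% lower).

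FPKM was not scaled between libraries. The median of all tested genes was 0.763 higher in polysomes (log2), and 1.01, 0.645 and 0.708 higher in pachytene, round and elongating cells. Scaling each library by its median ratio brought the medians to 0.120, 0.183, 0.0663 and 0.0195. With it, 4 members passed for the mean of the cell types, all lower: SNORA73, snoU6-77, SCARNA16 and Snord66. Of these, SCARNA16 alone had polysome pieces, and it was past the test on both scales with and without the scaling. The members' median was −0.371 on FPKM and −0.792 on fragments, against 0.763 and 1.5 for all genes.

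SNORA73, a copy of the U17 RNA that is needed for 18S rRNA processing, lies in an intron of Rpsa (chromosome 9, 120038469 to 120038671). Its fragments at mean depth were 70.7, 111 and 126 in pachytene RNP, 0, 49.0 and 23.6 in round RNP and 0, 16.7 and 14.3 in elongating RNP libraries, and it was listed at 0 in all 9 polysome libraries (adjusted p = 0.0035 on FPKM and 0.00088 on fragments for the mean of the cell types). The pachytene RNP libraries were the highest and did not overlap with the polysome libraries, while 1 library each of round and elongating RNP was at 0 as well. With 9 libraries at 0, no fold is given.

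SnoU6-77, named as a guide for the U6 spliceosomal RNA, lies in an intron of Eif4a1 (chromosome 11, 69482354 to 69482497). It had 38.2, 0 and 43.1 fragments in pachytene RNP, 16.9, 0 and 25.7 in round RNP and 31.4, 15.7 and 12.7 in elongating RNP libraries, and was listed at 0 in all 9 polysome libraries (adjusted p = 0.0028 on FPKM and 0.0027 on fragments). The libraries numbered 2 of pachytene and round RNP were at 0, so only the elongating fractions did not overlap. The FPKM of the same pieces spanned 16.9 to 68590, with the highest value on a piece of 50 nt. When pieces were also required to cover at least 0.5 of the gene, the adjusted p was 0.0887.

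SCARNA16, an H/ACA RNA of Cajal bodies in an intron of the noncoding 2810008D09Rik (chromosome 11, 116938557 to 116938749), was the only one of the 6 with pieces in both fractions. Its FPKM was 51.0, 737 and 530 in pachytene RNP and 27.1, 198 and 113 in pachytene polysome, 14.3, 233 and 356 in round RNP and 0, 26.8 and 44.1 in round polysome, and 190, 109 and 138 in elongating RNP and 0, 0 and 4.32 in elongating polysome libraries. The fractions overlapped in pachytene and round cells and did not in elongating cells. SCARNA16 fell by 3.78 on the log2(FPKM + 1) scale (SE 0.82, adjusted p = 0.0038) and by 3.30 on the log2(fragments + 1) scale (SE 0.92, adjusted p = 0.0093). The call held in all 18 fits that left out 1 library.

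Snord66, a C/D RNA in an intron of Eif4g1 (chromosome 16, 20684312 to 20684386), was at 75 bases the shortest member. Its FPKM was 1299, 1467 and 1169 in the elongating RNP libraries and 1651 in round RNP library 1, on 28.4, 36.5, 39.4 and 10.9 fragments, and it was listed at 0 in the other 14 libraries. Its pieces of 66 to 87 nt ended 19 to 26 bases beyond the annotated end. It passed for the mean of the cell types (adjusted p = 0.0046 on FPKM, 0.0039 on fragments) through the elongating libraries, where it also passed alone.

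SNORA71, in an intron of the noncoding 9430008C03Rik, had 17.96 and 19.3 fragments in pachytene RNP libraries 1 and 3 and 10.9 and 12.9 in round RNP libraries 1 and 3, and was listed at 0 elsewhere. SNORA63, called E3 and also linked to 18S rRNA processing, lies in the same host as Snora81, Eif4a2. It had 61.9 and 20.8 fragments in pachytene RNP libraries 1 and 3, 15.9 and 24.5 in round RNP libraries 1 and 2 and 23.3 in elongating RNP library 3, and was listed at 0 elsewhere. These were the least stable calls. SNORA71 (adjusted p = 0.0279) lost its call without pachytene RNP library 1 or 3 or round RNP library 3 (highest adjusted p = 0.0648), and SNORA63 (adjusted p = 0.0446) lost it in 13 of 18 such fits, without pachytene RNP library 1 or 3, round RNP library 1 or 2 or any 1 of the 9 polysome libraries (highest 0.0894), and without both round libraries numbered 2 (0.0946).

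SNORA53, an H/ACA RNA in an intron of Slc25a3 (chromosome 10, 90581036 to 90581281), changed direction between the scales. Its FPKM was 589, 743 and 519 in pachytene RNP and 1530, 1678 and 3624 in pachytene polysome, 873, 1045 and 1167 in round RNP and 1916, 3398 and 2232 in round polysome, and 317, 486 and 630 in elongating RNP and 1337, 905 and 2472 in elongating polysome libraries. In each cell type the polysome FPKM lay above the RNP FPKM, with no overlap. Its fragments were 139, 338 and 282 against 43.4, 166 and 187 in pachytene, 34.8, 556 and 120 against 20.8, 47.7 and 42.4 in round and 125, 288 and 62.3 against 27.3, 13.7 and 70.1 in elongating cells, so that 4 of 9 polysome libraries lay below all RNP libraries of their cell type, with overlap in each cell type. The RNP pieces were 90 to 173 nt long and the polysome pieces 71 to 110 nt. SNORA53 was 1.56 higher in polysomes on the log2(FPKM + 1) scale (SE 0.39, adjusted p = 0.0083), and fell by 1.70 on the log2(fragments + 1) scale (SE 0.65, adjusted p = 0.0381).

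**Figure D4:**
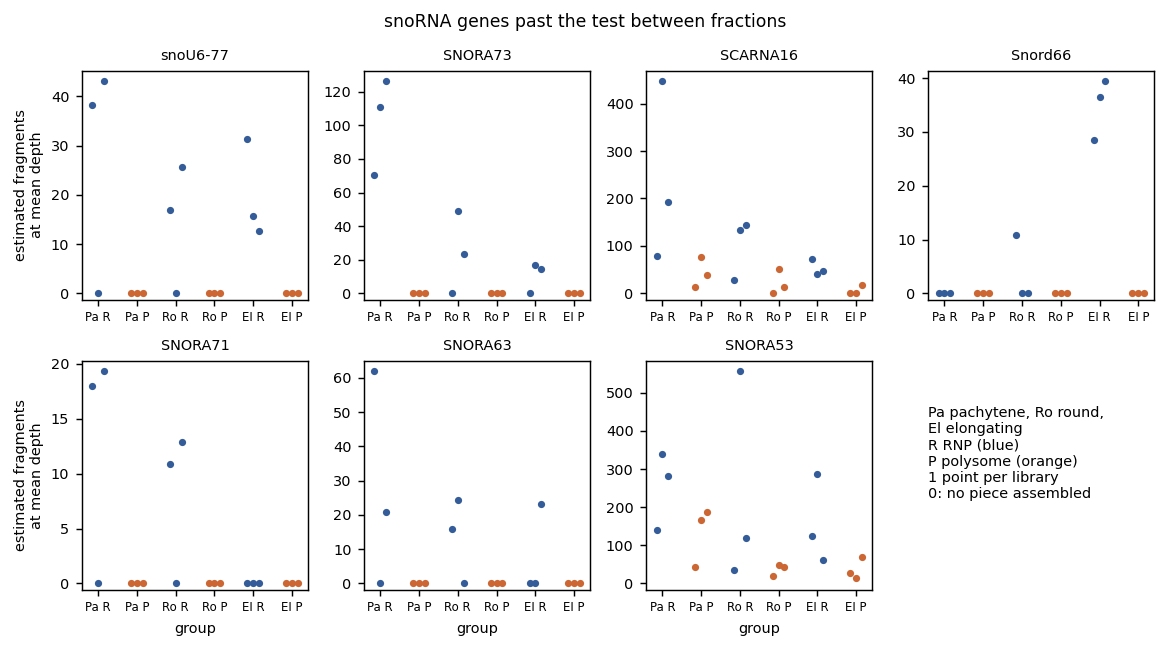
Estimated fragments at mean depth (vertical axes, from 0) of the 7 members past the test on FPKM for the mean of the 3 cell types, in the 6 groups of 3 libraries, with 1 point per library (blue RNP, orange polysome). Of these, 5 members are at 0 in all 9 polysome libraries, SCARNA16 is lower there, and SNORA53 overlaps between the fractions in fragments although its FPKM is higher in polysomes.

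A further 5 members passed on the fragment scale only, all lower in polysomes. Snord22, the U22 RNA that is needed for 18S rRNA processing, had 348, 190 and 311 fragments in pachytene RNP and 17.1, 54.9 and 0 in pachytene polysome, 63.6, 0 and 78.2 against 0, 0 and 8.34 in round, and 108, 146 and 112 against 0, 0 and 19.3 in elongating cells. Apart from round RNP library 2, which was at 0, every RNP library lay above the polysome libraries of its cell type. Snord22 fell by 4.43 on the log2(fragments + 1) scale (SE 1.10, adjusted p = 0.0049), while on FPKM the adjusted p was 0.0881.

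On FPKM the adjusted p was 0.205 for Snord17, 0.145 for SCARNA1, 0.170 for Snord15a and 0.499 for SCARNA21. On the log2(fragments + 1) scale, Snord17 fell by 3.21 (SE 0.89, adjusted p = 0.0090) and SCARNA1 by 2.59 (SE 0.94, adjusted p = 0.0305). Snord15a fell by 2.05 (SE 0.69, adjusted p = 0.0224) and SCARNA21 by 1.26 (SE 0.47, adjusted p = 0.0339) on that fragment scale. Snord17 had 194, 168 and 253 fragments against 0, 52.6 and 54.3 in pachytene, 66.5, 120 and 75.0 against 19.03, 0 and 31.6 in round, and 190, 142 and 163 against 27.3, 29.3 and 26.7 in elongating cells. Its fractions did not overlap in any cell type. Snord15a, a guide for 28S rRNA in an intron of Rps3, was at 28.1, 35.0 and 29.7 fragments in pachytene RNP and at 0, 0 and 8.92 in pachytene polysome libraries. It had pieces in 5 RNP libraries and 1 polysome library, so it met the rule through RNP and its direction follows from that selection.

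**Figure D5:**
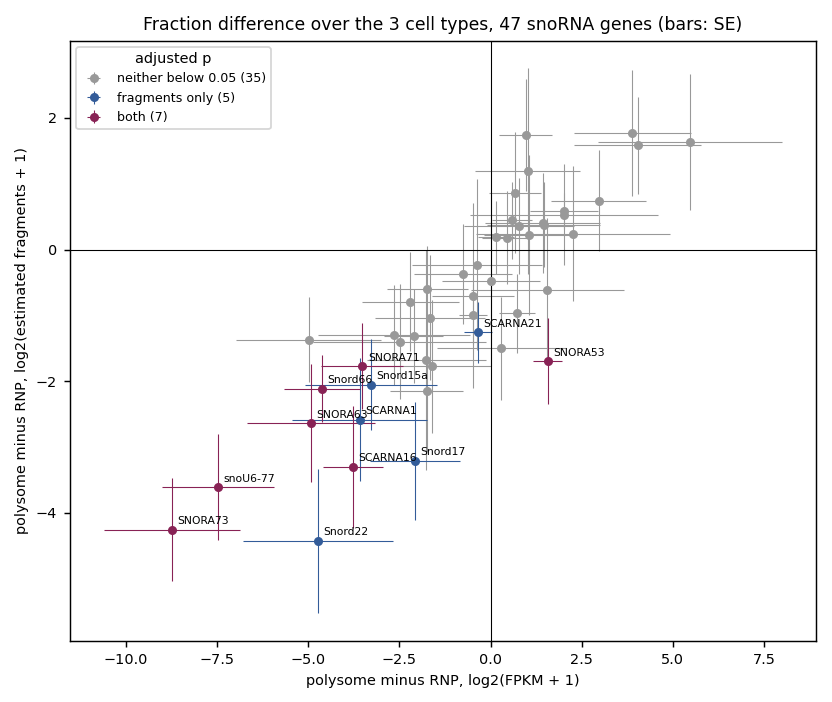
Polysome minus RNP difference over the 3 cell types for the 47 members, on log2(FPKM + 1) (horizontal axis) and log2(estimated fragments + 1) (vertical axis), with bars of 1 SE; maroon, adjusted p below 0.05 on both scales; blue, on fragments only. The position of members at 0 in all 9 polysome libraries depends on the pseudocount of 1; SNORA53 is the only member past the test with opposite signs.

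By class, the 7 members with a C/D symbol leaned to the RNP fraction. Each was assembled in more RNP than polysome libraries, 6 of 7 had a negative FPKM difference and 7 of 7 a negative fragment difference, and their medians were −3.28 and −2.05. Among all 14665 genes, 1632 were negative on FPKM and 965 on fragments. Snord66 and Snord15b had entered through RNP libraries alone. Snord15a and Snord13, with pieces in 1 polysome library each, also met the rule through RNP libraries. The direction of these members thus follows from their selection. The class leaves out C/D RNAs with other symbols, such as snoU97, higher in polysomes without scaling but past the test on neither scale, and snoU6-77, which was lower. These medians include members listed at 0 in 1 fraction, whose differences depend on the pseudocount. The 23 H/ACA members split, with 13 higher and 10 lower on FPKM (median 0.785) and 10 higher and 13 lower on fragments (median −0.375). The 11 scaRNAs had medians of −0.484 and −0.703, with 7 lower on each scale. Over all 47 members, 24 were assembled in more RNP libraries, 12 in more polysome libraries and 11 in equally many. SNORA73, snoU6-77, SNORA63, Snord66, SNORA71 and Snord15b had pieces in RNP libraries only, and SNORA48 on chromosome 8 in polysome libraries only, at 24.5, 34.4 and 20.7 fragments.

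The spliceosomal RNA genes (snRNA) that met the rule were mostly lower in polysomes too. Of 15 such genes, 8 were called lower on FPKM and 0 higher, with a median of −3.13. Of 15 genes of the type misc_RNA, 11 were called lower and 1 higher, with a median of −6.06. On fragments, 8 of 15 and 13 of 15 were called lower (medians −2.29 and −4.71). Of all genes, 0.491% were called lower on FPKM and 0.586% on fragments. Genes of either type that met the rule through RNP libraries alone could only be lower. The differences between these gene types and the snoRNA genes were not tested.

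In pachytene spermatocytes, 1 member passed on FPKM, Scarna3b, which was lower, against 6.34% of all genes (0.177% lower). It met the rule through 2 pachytene RNP libraries and 1 round polysome library, so its direction in pachytene cells was fixed by its selection too. Scarna3b had 2314 and 636 FPKM in pachytene RNP libraries 2 and 3, on 27.5 and 14.9 fragments, and was listed at 0 in pachytene RNP library 1 and all 3 polysome libraries (adjusted p = 0.0469). The fractions thus touched at 0, and the call was lost in 14 of 18 fits that left out 1 library, among them pachytene RNP library 3 (adjusted p = 0.228), and was held only without pachytene RNP library 1, round RNP library 2 or round polysome library 1 or 2. On fragments, SNORA73 (adjusted p = 0.0111) and Snord15a (fell by 3.89, SE 1.20, adjusted p = 0.0328) passed instead, against 24.2% of all genes (0.273% lower). SNORA73 had entered through RNP libraries alone, and Snord15a met the rule with pieces in 5 RNP libraries and 1 polysome library. Their direction thus follows from their selection too. The members' median was 0.637 on FPKM, −0.279 on fragments and −0.202 on FPKM after median-ratio scaling, so the direction of this median turned with the scale. The members nearest to the test on the higher side were SNORA70 (9.28, SE 2.73, adjusted p = 0.0526), SNORA53 (adjusted p = 0.105) and SNORA84 on chromosome 13 (5.70, SE 2.26, adjusted p = 0.118). On the lower side they were snoU6-77 (adjusted p = 0.0707) and Snord15b (adjusted p = 0.0721).

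SNORA70, an H/ACA RNA with 40 annotated copies, showed how few fragments such differences rest on. It had 4205, 3325 and 4206 FPKM in the pachytene polysome libraries and 246 in pachytene RNP library 2, but 10.8, 11.7 and 17.1 fragments and 17.5 fragments. Pachytene RNP libraries 1 and 3 were at 0. On the fragment scale the adjusted p was 0.155.

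In round spermatids, 0 members passed on either scale by limma, with 7 at an unadjusted p under 0.05 on FPKM, against 0.327% of all genes on FPKM and 0.177% on fragments. The members with the smallest p were SNORA73 (adjusted p = 0.226), SNORA71 (0.236) and Snord13 (0.247) on the lower side, and SNORA48 on chromosome 8 (0.261), SNORA79 on chromosome 16 (8.58, SE 4.37, adjusted p = 0.363) and U3 on chromosome 11 (0.382) on the higher side. Without both round libraries numbered 2 the count was 0 as well.

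In elongating spermatids, 3 members passed on FPKM, all lower in polysomes: Snord66 (adjusted p = 0.0101), SCARNA16 (fell by 6.35, SE 1.42, adjusted p = 0.0390) and snoU6-77 (adjusted p = 0.0485). Of all genes, 1.6% passed, and 0.211% were lower. The 3 RNP libraries lay above the 3 polysome libraries for each of them, but Snord66 and snoU6-77 had become members through RNP libraries alone, Snord66 mainly through these 3. SCARNA16 was the member of the 3 with pieces in both fractions. On fragments, Snord66 alone passed (adjusted p = 0.0108), against 1.92% of all genes (0.191% lower). Without elongating RNP library 2, 0 members passed on FPKM, and Snord66 was at an adjusted p of 0.0528. SCARNA16 lost its call in 7 of 18 fits that left out 1 library (highest adjusted p = 0.144), without any 1 of the 6 elongating libraries or pachytene polysome library 3, and snoU6-77 in 12 (highest 0.188). On the higher side, SNORA53 (1.65, SE 0.68, adjusted p = 0.187), SNORA48 on chromosome 10 (adjusted p = 0.236) and snoU97 (2.08, SE 1.62, adjusted p = 0.502) did not pass.

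Whether the fraction difference itself changed between cell types was tested by interaction. From pachytene to round cells 0 members passed by limma, with 4 at an unadjusted p under 0.05 (0.0136% of all genes passed), and from round to elongating cells 0, with 1 unadjusted (0.00682% of all genes). The smallest adjusted p was 1 in both. On fragments the counts were 0 and 0 as well, with 0.0205% and 0% of all genes.

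Between cell types, no member passed in either fraction on FPKM or fragments without scaling. In RNP, round against pachytene cells gave 0 members (limma, 7 at an unadjusted p under 0.05), with 0% of all genes called on FPKM, and elongating against round cells gave 0 (5 unadjusted), with 0.0818% of all genes. In polysomes, round against pachytene cells gave 0 (7 unadjusted), with 0.157% of all genes, and elongating against round cells gave 0 (5 unadjusted), with 0.573%. On fragments the count was 0 in all 4, with 0.0205%, 0.123%, 0.28% and 0.484% of all genes in the same order. Median-ratio scaling on FPKM gave 0 in all 4 as well, and on fragments it gave 1, Snord66, in RNP from round to elongating cells (difference 4.67, adjusted p = 0.0188). Snord66 met the rule through 3 elongating and 1 round RNP library, so this direction follows from its selection and the p-value is no evidence for it.

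The members closest to the test between cell types were again those with pieces in few libraries. In RNP, Scarna3b (adjusted p = 0.772), Snord15b (0.954) and Snora73b (1) were lower in round than in pachytene cells, each with pieces in 2 pachytene RNP and 0 round RNP libraries. Scarna13 had 70.9, 0 and 26.6 FPKM in pachytene RNP and 40.9, 463 and 81.5 in round RNP libraries (3.22 higher, SE 1.26, adjusted p = 1), and Snord13 was at 0 in pachytene RNP and at 0, 1533 and 300 in round RNP libraries. The groups overlapped or met at 0 in each case.

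From round to elongating RNP, Snord66 had a piece in 1 round and 3 elongating libraries (difference 6.79, SE 1.80, adjusted p = 0.255), snoU6-77 in 2 and 3 (7.81, SE 2.67, adjusted p = 0.449) and U3 on chromosome 10 in 2 and 3 (4.22, SE 2.48, adjusted p = 0.620), none past the test on FPKM. Snord66 passed without round RNP library 1, the only round RNP library with a piece (adjusted p = 3.13e-09). The remaining round values were then all 0, with no spread, and Snord66 had become a member mainly through the elongating RNP libraries. That p-value is therefore no evidence of a change. SNORA70 (adjusted p = 0.477) and SNORA71 (0.493) were at 0 in elongating RNP, and Snora74a had a difference of −3.05 (SE 1.39, adjusted p = 0.570). In polysomes, SNORA70 (adjusted p = 0.313), SNORA84 on chromosome 13 (0.348) and SNORA38 (0.395) were lower in round than in pachytene cells, and SNORA57 was higher (3.71, SE 1.73, adjusted p = 0.631). Snora81 (0.194), SNORA57 (0.251) and SNORA48 on chromosome 8 (0.251) were lower in elongating than in round polysomes. On the higher side in elongating polysomes were Snord17 (3.11, SE 2.15, adjusted p = 0.468), SNORD94 (2.03, SE 3.07, adjusted p = 0.739) and Scarna10 (1.17, SE 1.97, adjusted p = 0.766). For the latter comparison 31 members were lower and 4 higher, with a median of −1 against −0.148 for all genes.

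By symbol, 10 members were among the 130 annotated genes of a list of RNAs that act in pre-ribosomal RNA processing. They were U3 on chromosomes 10 and 11, Snord22 (U22), Snord13 (U13), Snora73a, Snora73b and SNORA73 (U17), SNORA63 (E3), and Snora74a and SNORA74 (U19). U3 on chromosome 11, annotated at 125 bases, was 49.8% identical to U3 on chromosome 10 over an alignment of 213 columns. Its 4 pieces, of 237 to 247 nt, ended 68 to 96 bases beyond the gene. Whether this copy acts in that processing was not tested. For the mean of the cell types 2 of 10 were called lower in polysomes on FPKM (SNORA73 and SNORA63) and 0 higher, with a median of −1.44, and 3 of 10 on fragments, with Snord22 (median −0.632). Of all genes 0.491% were lower on FPKM and 0.586% on fragments, and SNORA73 and SNORA63 had entered through RNP libraries alone. U3 on chromosome 10, of 212 bases, had 4430, 0 and 0 fragments in pachytene RNP, 265, 953 and 979 in pachytene polysome, 624, 0 and 1072 in round RNP, 143, 475 and 180 in round polysome, 936, 1228 and 1023 in elongating RNP and 83.7, 128 and 179 in elongating polysome libraries. Its elongating RNP libraries lay above the elongating polysome libraries, while 3 RNP libraries of the earlier cells were at 0. With 47 annotated copies, reads of U3 may have been placed elsewhere.

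The close relatives of SNORA73 did not share its pattern. Snora73b had 176, 0 and 278 fragments in pachytene RNP and 32.0, 85.9 and 117 in pachytene polysome libraries, and 43.7 in round polysome library 3 and 77.3 in elongating RNP library 2. Snora73a had 343 in pachytene RNP library 3, 32.0 and 97.1 in pachytene polysome libraries 1 and 3 and 178 in round RNP library 3. Both lie in introns of Rcc1 and had pieces in both fractions (adjusted p for the mean of the cell types 0.523 and 0.996 on FPKM). Snora74a was assembled in 16 libraries, at 10.9 to 67.5 fragments, with a difference of −2.11 on FPKM (SE 0.80, adjusted p = 0.0556).

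Of the 47 members, 41 lay in an intron of a gene on the same strand, in 36 host genes of which 5 held 2 members each and 0 held 3 or more. The 6 others were U3 on chromosome 10, Snord22, Scarna13, Scarna2, SNORA57 and Snord13. The hosts of 36 members were protein coding, several of them for translation, such as Eif4g2, Eif4a1, Eif4a2, Eif4g1, Rpsa, Rps3 and Rpl32. The direction of each member was set beside that of its host's spliced RNA. Of the 39 members with a host tested, 18 were lower in polysomes while the host was higher, and 17 were higher with the host higher. A further 2 were higher with the host lower, and 2 lower with the host lower. These counts are on FPKM for the mean of the cell types. The 18 included all 6 members with pieces in RNP libraries only, which could only be lower, and Snord15a, which met the rule through RNP. Their direction against the host thus follows from their selection. The 17 included SNORA48 on chromosome 8, which had pieces in polysome libraries only and could only be higher. Of the 35 host genes, 12 were called higher in polysomes on FPKM for the mean of the cell types and 0 lower, with a median of 0.944, beside 30.1% of all genes called higher and a median of 0.763. On fragments 26 of 35 were called higher (median 1.4), beside 53.5% of all genes and a median of 1.5.

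The mRNAs of proteins that work with snoRNAs were compared in the same way. For the mean of the cell types, 3 of 4 C/D core proteins were called higher there (median 1.44), 1 of 4 H/ACA core proteins (0.342), 6 of 11 snoRNP assembly factors (0.978), 3 of 10 RNA polymerase I factors (0.0152) and 7 of 23 small subunit processome proteins (0.815), of which 1 more, Utp20, was lower. All tested genes had a median of 0.763, and 30.1% of them were called higher. On fragments the counts were 2 of 4, 2 of 4, 9 of 11, 4 of 10 and 11 of 23 higher, with medians of 1.76, 1.66, 1.38, 1.15 and 1.17. Nop58, a core protein of C/D particles, had 59.0, 26.2 and 6.71 FPKM in pachytene RNP and 55.9, 123 and 76.9 in pachytene polysome, 23.9, 28.1 and 18.9 against 108, 73.5 and 46.5 in round and 15.3, 13.7 and 20.5 against 82.3, 124 and 76.3 in elongating cells. Its fractions did not overlap in round and elongating cells and overlapped in pachytene cells (1.94 higher, SE 0.34, adjusted p = 0.0012).

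Ruvbl2, an ATPase that helps to assemble the particles, was 1.44 higher (SE 0.30, adjusted p = 0.0029), Pih1d1 of the same R2TP complex 1.23 higher (SE 0.29, adjusted p = 0.0056), Znhit3 1.30 higher (SE 0.26, adjusted p = 0.0024) and Nhp2l1, which binds the C/D motif, 1.49 higher (SE 0.47, adjusted p = 0.0271). Nop10 of the H/ACA core did not pass (−0.14, SE 0.36, adjusted p = 0.779).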

How the data were processed

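Per the labels and the study's methods, the authors trimmed reads with the FASTX-Toolkit, aligned them with TopHat2 to mm9 and assembled each library alone with Cufflinks (closer versions are not given in the sources used here), and deposited FPKM per assembled transcript with no scaling between libraries. Which libraries were sequenced at single or paired ends is not stated. A gene's FPKM was the sum over single-exon transcripts with at least 0.5 of their length in the gene's exon, on its strand or with no strand. Log2(FPKM + 1) of the 14665 genes with at least 1 FPKM in at least 3 libraries was fitted with limma 3.58.1 (R 4.3.3; trend, 6 groups, two-sided, Benjamini-Hochberg over all 14665 genes, threshold 0.05). The fit was also run on simulated data with normal errors. That simulation held no runs of 0 like those of the members, so it does not bear on calls that rest on values of 0. Fold changes on this scale understate those of low genes. Fragments were estimated from FPKM and transcript length and set to the mean depth. The length dependence was itself taken from the FPKM bounds of single-exon transcripts in these libraries. The estimates differed from the counts implied by each piece's own bounds by a mean of 0.0102 (log2, SD 0.0215). Since both rest on the same bounds, this small difference was built in and is no independent check of the fragment scale.

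Members and gene lists were chosen with earlier results of these data known. Named members were the 12 with the highest mean level, up to 6 per direction and comparison past the test (otherwise the 3 with the smallest p as values), the rRNA processing list and those at the threshold. Members past the test on fragments only were named after their values were seen. Same-numbered libraries deviated together, with every pair's correlation over 0.1, for round polysome against RNP (0.533, 0.662 and 0.203) and round against pachytene RNP (0.404, 0.596 and 0.118). The pairs numbered 1 and 2, but not 3, did so for pachytene polysome against RNP (0.388, 0.316 and -0.069) and round against pachytene polysomes (0.476, 0.373 and -0.119). Pairing can thus matter there as well. Alternatives were other scalings, pseudocounts, filters, overlap rules and strand rules, a replicate block, fits without the round libraries numbered 2 or any 1 library, and, added after seeing the data, estimated fragments with and without median-ratio scaling.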

Additional observations from a re-analysis of the deposited data

How the results depend on the processing

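For pachytene polysome against RNP, the number of members past the test was 1 as reported, 0 with median-ratio scaling, quantile normalization or a pseudocount of 0.1, 2 with a filter of 5 FPKM, 4 without both round libraries numbered 2, 5 with length-weighted values, 6 when pieces had to cover at least 0.5 of the gene, 2 on fragments, 9 at an unadjusted p under 0.05 and 0 to 3 without any 1 library. For elongating cells it was 3 as reported, 1 with quantile normalization, with stated strands only and on fragments with or without median-ratio scaling, 7 unadjusted and 0 to 3 without any 1 library. For the mean of the cell types it was 7 as reported, 4 with median-ratio scaling or quantile normalization, 1 with stated strands only, 11 when pieces had to cover at least 0.5 of the gene or values were length-weighted, 12 on fragments with or without median-ratio scaling, 15 unadjusted and 5 to 9 without any 1 library. For the comparisons with 0 members it was 7, 7, 5, 7 and 5 unadjusted (round fractions, RNP round against pachytene, RNP elongating against round, polysome round against pachytene and polysome elongating against round), and 0 to 1, 0 to 1, 0 to 1, 0 to 1 and 0 to 2 without any 1 library. It was 1 for RNP round against pachytene when pieces had to cover at least 0.5 of the gene, 1 for RNP elongating against round with stated strands only or on fragments with median-ratio scaling, and 1 for polysome round against pachytene without both round libraries numbered 2. With the replicate block, the pachytene count was 4 and the mean count 11, while the counts of the round fractions and of RNP round against pachytene, where every same-numbered pair correlated, stayed at 0. For the mean of the cell types, 8 of the 12 members past the test on fragments also passed on fragments with median-ratio scaling. The causes were not tested.

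Differences that reversed were those of SNORA53 (pachytene −9.26, elongating −5.75 and mean −6.12 when pieces had to cover at least 0.5 of the gene; −1.09, −2.09 and −1.70 on fragments; −2.77, −3.29 and −2.99 on fragments with median-ratio scaling), SNORA84 on chromosome 13 in pachytene cells (−0.19 on fragments with median-ratio scaling), snoU97 in elongating cells (−7.78 when pieces had to cover at least 0.5 of the gene, −1.06 on fragments with median-ratio scaling), and, from round to elongating RNP, snoU6-77 (−1.39 when pieces had to cover at least 0.5 of the gene) and Snora74a (0.60 and 0.066 under the same pair of settings as snoU97). From round to elongating polysomes, SNORD94 lay between −2.39 (without round polysome library 3) and 4.68 (without library 2) and Scarna10 between −1.60 (without round polysome library 1) and 3.06 (without library 2). Precision is limited by the few fragments behind most pieces and by values of 0 where no piece was assembled.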
